A study of Mus musculus with 6 samples.

Results

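The interleukin-6 (IL-6) family is described here by 10 genes: the ligands Il6, Il11, Osm and Lif, the receptor chains Il6ra, Il11ra1, Osmr and Il6st, the transcription factor Stat3 and its feedback inhibitor Socs3. They were taken by symbol, with the transcript row of highest mean count for each, from the 24063 gene symbols of the count tables, and all 10 were among the 16336 genes that passed the filter on low counts. The rule for the rows used symbols and mean counts, with results of these data already known when the genes were chosen. RNA sequencing was done on penile tumors of 3 SA mice and on the normal penile epithelium of 3 WT mice. SA mice carried PB-Cre+ Smad4L/L ApcL/L, that is, Cre recombinase under an androgen-responsive probasin promoter together with floxed alleles of Smad4 and Apc, and were 5 months old. WT mice were age-matched C57BL/6 animals. The tumors arose with no carcinogen, and no group received a treatment. The WT mice carried neither Cre nor floxed alleles, so Cre, the floxed alleles, the 2 deletions and tumor growth cannot be told apart, and a strain background of the SA mice is not given in the sources used here.

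IL-6 family cytokines bind a specific receptor chain and then the shared signaling chain gp130, the product of Il6st. IL-6 and IL-11 use the ligand-binding chains encoded by Il6ra and Il11ra1 with gp130, oncostatin M uses the chain encoded by Osmr with gp130, and LIF uses the chain encoded by Lifr with gp130. The paired receptor activates JAK kinases, which phosphorylate STAT3. Phosphorylated STAT3 enters the nucleus and induces target genes, among them Socs3, whose protein binds gp130 and the JAKs and shuts the signal off. In squamous epithelia the family is known for its roles in wound repair, inflammation and tumor growth. RNA levels do not show whether STAT3 protein is phosphorylated.

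Libraries held between 23828283 and 110509147 counts over the gene rows, and SA tumor 3 had 4.42 times the median depth of the other libraries. Levels below are TMM-normalized CPM, that is, read counts scaled to a common library size, and 3 counts corresponded to between 0.0244 and 0.137 CPM in a library. Smad4 was at 36.6, 36.1 and 46.1 CPM in the SA tumors and at 61.2, 69.7 and 72.5 CPM in the WT penises, and Apc was at 253, 194 and 197 CPM against 62.5, 85.3 and 91.1 CPM. These whole-gene counts include reads from outside the deleted exons and from cells without Cre, and so do not check the deletion. A list of 8 stratified epithelium markers (keratins, adhesion genes and Trp63) summed to between 21304 and 26362 CPM in the tumors and between 58915 and 66339 CPM in the WT penises, so both tissues held the labelled epithelium. Keratins made up most of these sums, and the list was mixed. At an edgeR adjusted p under 0.01, Krt5, Krt1, Krt10 and Trp63 were lower in tumors and Epcam was higher, at 2.35 on the log2 scale. Krt14, Cdh1 and Dsg3 did not pass. All 5 smooth muscle markers were lower, with sums of 34.9 to 120 CPM in the tumors and 1476 to 1966 CPM in the WT penises. The 7 fibroblast markers summed to 1372, 3854 and 4969 CPM in the tumors against 6147 to 6433 CPM, but were mixed. Dcn was lower at -1.80 on the log2 scale and alone had an edgeR adjusted p under 0.01. Pdgfra and Pdgfrb differed upward, at 1.09 and 0.98, and the collagens and Lum downward. Of 8 granulocyte markers, Ly6g was not analysed here, Camp was too low to test, and the other 6 were all called higher in tumors. Their list summed to 1739, 1427 and 2490 CPM in SA tumors 1, 2 and 3 and to 120, 79.0 and 56.7 CPM in the WT penises. S100a8 and S100a9 made up most of these sums. The macrophage list, without Adgre1, which was not analysed here, summed to 134, 309 and 319 CPM in the tumors and to 310, 218 and 247 CPM in the WT penises.

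Of the 4 ligands 3 rose in SA tumors, while all 4 receptor chains were lower. Il6, Il11 and Osm rose in SA tumors, Il11ra1 fell, and Il6ra, Il6st and Osmr were lower without reaching the 4-fold threshold, while Lif, Stat3 and Socs3 did not pass the test. A gene was called at a Benjamini-Hochberg adjusted p under 0.01 in edgeR's quasi-likelihood test together with a fold change of 4 or more in either direction, 2 on the log2 scale. By that rule 3 of the 10 genes were called higher and 1 lower, beside 9.41% and 3.59% of all tested genes. Il6 and Osm were under the filter's 0.380 CPM in every WT penis, at most 0.100 and 0.271 CPM. They passed the filter only through the tumors, so the direction of these calls was largely set by the filter. On the adjusted p alone, 3 genes were higher and 4 lower, beside 20.1% and 17.5% of all tested genes, or 7 of 10 in either direction beside 37.6%. The samples of the 2 groups did not overlap for these 7 genes, 3 higher and 4 lower in tumors, where 32.7% of all tested genes were higher in every tumor and 30.7% lower in every tumor. The median log2 fold change over the 10 genes was -0.07, and over all tested genes it was 0.03.

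**Figure D1:**
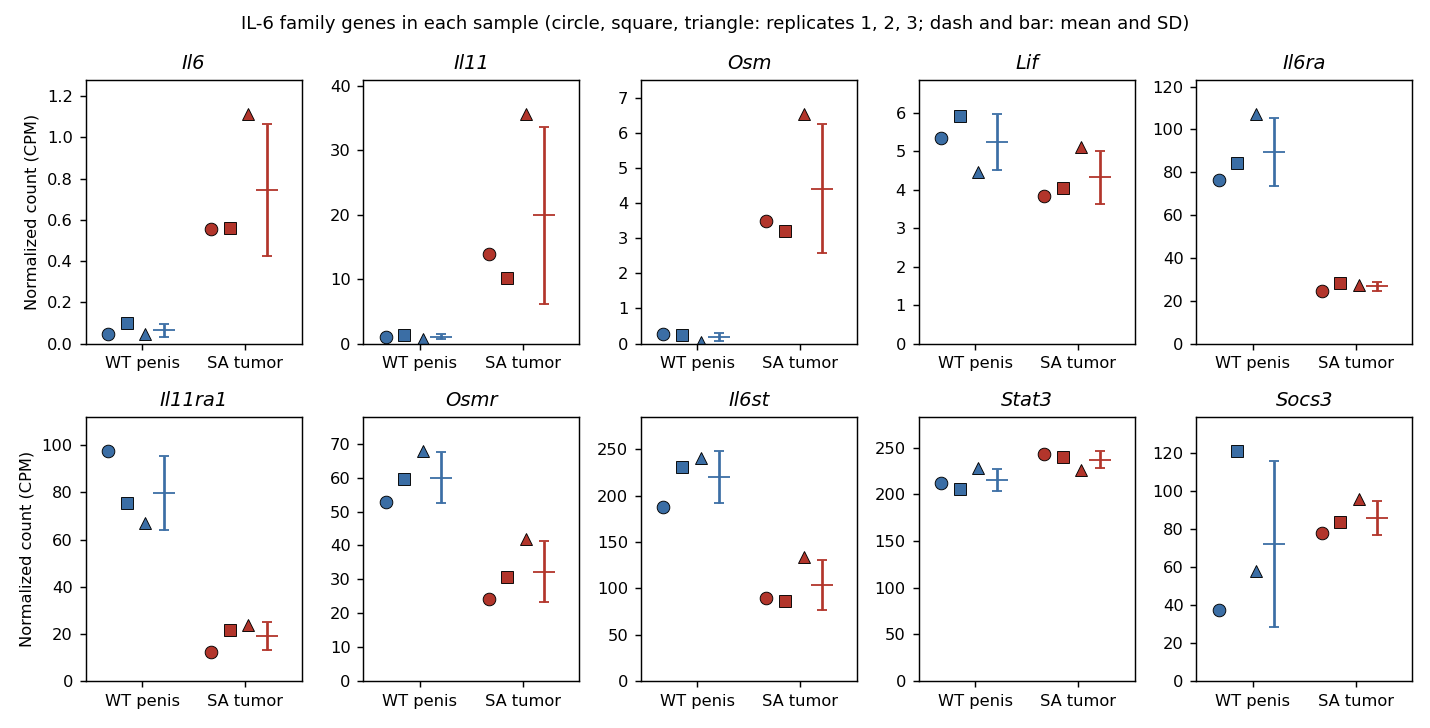
Normalized counts (CPM, linear axes from 0) of the 10 genes in each of the 3 WT penises (blue) and 3 SA tumors (red), with the group mean and SD beside the points. Il6, Il11 and Osm are higher in every tumor than in any WT penis, the 4 receptor chains are lower in every tumor, and Lif, Stat3 and Socs3 overlap.

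Il11 (NM_008350, mm10 chr7:4772373-4782907), which encodes the gp130 cytokine IL-11, was the ligand with the highest mean TPM in the tumors. It was at 13.8, 10.2 and 35.6 CPM in SA tumors 1, 2 and 3, and at 1.08, 1.40 and 0.729 CPM in WT penises 1, 2 and 3. The lowest tumor was above the highest WT penis, and SA tumor 3 stood apart from the other tumors. The difference was 4.20 on the log2 scale (SE 0.566, 95% interval 2.86 to 5.54, edgeR adjusted p = 0.000744), from 19.9 ± 13.7 CPM in tumors and 1.07 ± 0.337 CPM in WT penises (mean ± SD, n = 3 each). Without SA tumor 3 the difference was 3.46 on the log2 scale and was still called. Counts were 372, 309 and 4380 in the tumors and 24, 42 and 16 in the WT penises.

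Il11 has transcript rows for 2 start sites that lie 4716 bases apart, so that the first exons differ and later exons are shared. The row of the start nearer to the coding exons held 1.10, 1.04 and 1.07 times the counts of the upstream row in the tumors, and 0.828, 0.778 and 0.727 times in the WT penises. The nearer row was the larger in each of the 3 tumors and the smaller in each of the 3 WT penises. No test was run on this ratio, because reads from shared exons were counted in both rows and the WT counts were low. The promoter of the nearer start is shown because that row represents the most abundant ligand of the tumors. It is the RefSeq window from 250 bases before the start to 50 after it (GRCm38.p6, minus strand, chr7:4778092-4778391), with 1 match to the AP-1 motif TGANTCA in capitals, 98 bases upstream of the start.
Il11: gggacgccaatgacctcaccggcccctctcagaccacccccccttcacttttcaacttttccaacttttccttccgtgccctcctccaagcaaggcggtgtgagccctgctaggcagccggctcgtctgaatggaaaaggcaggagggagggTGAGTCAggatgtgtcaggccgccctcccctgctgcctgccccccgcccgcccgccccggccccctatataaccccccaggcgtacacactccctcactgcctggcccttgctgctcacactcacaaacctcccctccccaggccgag
The window of the upstream start held no match to any motif searched.

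Il6 (NM_031168, chr5:30013114-30019975), which encodes the founding cytokine of the family, stayed at a low level in both groups. It was at 0.557, 0.563 and 1.11 CPM in SA tumors 1, 2 and 3, and at 0.0452, 0.100 and 0.0456 CPM in WT penises 1, 2 and 3. These are 15, 17 and 137 counts in the tumors and 1, 3 and 1 in the WT penises, so the WT levels lie at or under 3 counts per library. The fitted difference was 3.49 on the log2 scale (SE 0.576, 95% interval 2.17 to 4.81, edgeR adjusted p = 0.00115). As a ratio of counts pooled over the libraries and scaled by their normalized sizes, it was 13.9 (95% interval 5.83 to 43.3), where the interval covers counting error only. Of the 169 tumor counts pooled, 137 came from SA tumor 3, so that library dominates the ratio. Every tumor was above every WT penis, and the tumors differed among themselves by a factor of 2.00. The Il6 promoter is shown because its 300 bases hold matches to 3 of the 5 motifs searched (plus strand, chr5:30012864-30013163). In capitals, from 5′ to 3′, are TGAGTCA (AP-1, 249 bases upstream of the start), TTGTGCAA (C/EBP, 128 bases upstream) and GGGATTTTCC (NF-kappaB, 44 bases upstream).
Il6: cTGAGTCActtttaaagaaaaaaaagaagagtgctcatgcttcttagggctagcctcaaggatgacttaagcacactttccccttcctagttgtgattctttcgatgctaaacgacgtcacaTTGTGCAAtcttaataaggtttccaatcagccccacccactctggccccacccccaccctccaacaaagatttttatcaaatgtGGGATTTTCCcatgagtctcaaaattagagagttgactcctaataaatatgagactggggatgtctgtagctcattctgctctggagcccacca

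Osm (NM_001013365, chr11:4236785-4241026), which encodes oncostatin M, showed the highest fold change of the 10 genes. It was at 3.49, 3.21 and 6.54 CPM in SA tumors 1, 2 and 3, and at 0.271, 0.234 and 0.0456 CPM in WT penises 1, 2 and 3. WT penis 3 held 1 count, the other WT penises held 6 and 7, and the tumors held 94, 97 and 805. The fitted difference was 4.55 on the log2 scale (SE 0.522, 95% interval 3.36 to 5.75, edgeR adjusted p = 0.000161), and the pooled count ratio was 29.2 (counting interval 17.3 to 53.6). Of the 996 tumor counts pooled for this ratio, 805 came from SA tumor 3. Osm was called under every alternative and with each sample left out. Granulocyte markers were highest in the same tumor as Il6, Il11 and Osm, SA tumor 3, at 2490 CPM against 1739 and 1427 CPM in SA tumors 1 and 2. These sums are mostly S100a8 and S100a9, both higher in SA tumor 1 than in SA tumor 2. Csf3r, Cxcr2, Mmp8 and Retnlg were lower in SA tumor 1 than in SA tumor 2, with Csf3r at 19.1 against 28.4 CPM. The part of granulocytes in the rise of the ligands was not tested. In bulk tissue, more cells that make a transcript and more transcript per cell cannot be told apart, and likewise fewer cells and less RNA per cell.

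Lif (NM_001039537, chr11:4257568-4272514), which encodes leukemia inhibitory factor, lies on the same chromosome as Osm, 16541 bases away. Lif was at 3.83, 4.04 and 5.11 CPM in SA tumors 1, 2 and 3, and at 5.33, 5.91 and 4.46 CPM in WT penises 1, 2 and 3. The groups overlapped, with a difference of -0.27 on the log2 scale (95% interval -0.75 to 0.21, edgeR adjusted p = 0.312). The interval leaves out a 4-fold change in either direction. The sign depended on the scaling and was 0.0188 when libraries were scaled by their totals only.

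The receptor chains were lower in every tumor than in any WT penis. Il6ra (NM_010559, chr3:89869324-89913196), the chain that binds IL-6, was at 24.3, 28.5 and 27.4 CPM in SA tumors 1, 2 and 3, and at 76.5, 84.5 and 107 CPM in WT penises 1, 2 and 3. The tumors lay close together, and the lowest WT penis was far above them. The difference was -1.74 on the log2 scale (SE 0.142, 95% interval -2.07 to -1.41, edgeR adjusted p = 2.71e-05), the lowest adjusted p of the 10 genes. Il6ra was therefore lower by 3.34-fold and missed the 4-fold threshold. Of its 8642 annotated exon bases, 242 overlap an antisense gene, and the strand setting of the counting is not given in the sources used here.

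Il11ra1 (NM_001172054, chr4:41760443-41769473), the chain that binds IL-11, was the 1 member called lower. It was at 12.3, 21.4 and 23.7 CPM in SA tumors 1, 2 and 3, and at 97.4, 75.4 and 66.8 CPM in WT penises 1, 2 and 3. The groups did not overlap, with SA tumor 1 lowest and WT penis 1 highest. The difference was -2.05 on the log2 scale (SE 0.254, 95% interval -2.64 to -1.46, edgeR adjusted p = 0.000338), or 4.15-fold, just past the threshold. It was -1.83 without SA tumor 1 and -1.89 without WT penis 1, so each of these libraries decided the call, while the adjusted p stayed under 0.01 at 7.27e-05 and 0.00208. With all samples the call was also lost under upper quartile scaling (-1.99) and scaling by library totals (-1.76). Among the tumors, SA tumor 1 also had the lowest marker sums for fibroblasts, smooth muscle, endothelium, macrophages, leukocytes, T cells and mast cells. Its fibroblast sum was 1372 CPM against 3854 and 4969 CPM in the other tumors. The part of these cell types in the Il11ra1 level was not tested. The near-identical copy Il11ra2 held at most 6 counts in any library.

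Il6st (NM_010560, chr13:112464070-112506860), which encodes the shared chain gp130, was at 89.9, 86.2 and 134 CPM in SA tumors 1, 2 and 3. It was at 188, 231 and 241 CPM in WT penises 1, 2 and 3. Even the highest tumor was below the lowest WT penis, and the difference was -1.09 on the log2 scale (SE 0.184, 95% interval -1.51 to -0.66, edgeR adjusted p = 0.00135). Osmr (NM_011019, chr15:6813568-6874968), the partner of gp130 for oncostatin M, was at 24.2, 30.6 and 41.9 CPM in SA tumors 1, 2 and 3 and at 52.8, 59.5 and 67.7 CPM in WT penises 1, 2 and 3. Its difference was the smallest of the receptor chains, at -0.89 on the log2 scale (SE 0.197, 95% interval -1.34 to -0.44, edgeR adjusted p = 0.00542). The adjusted p of Osmr was above 0.01 when SA tumor 2 or any 1 of the WT penises was left out, from 0.0123 to 0.0262, and was 0.0348 with scaling by library totals.

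**Figure D2:**
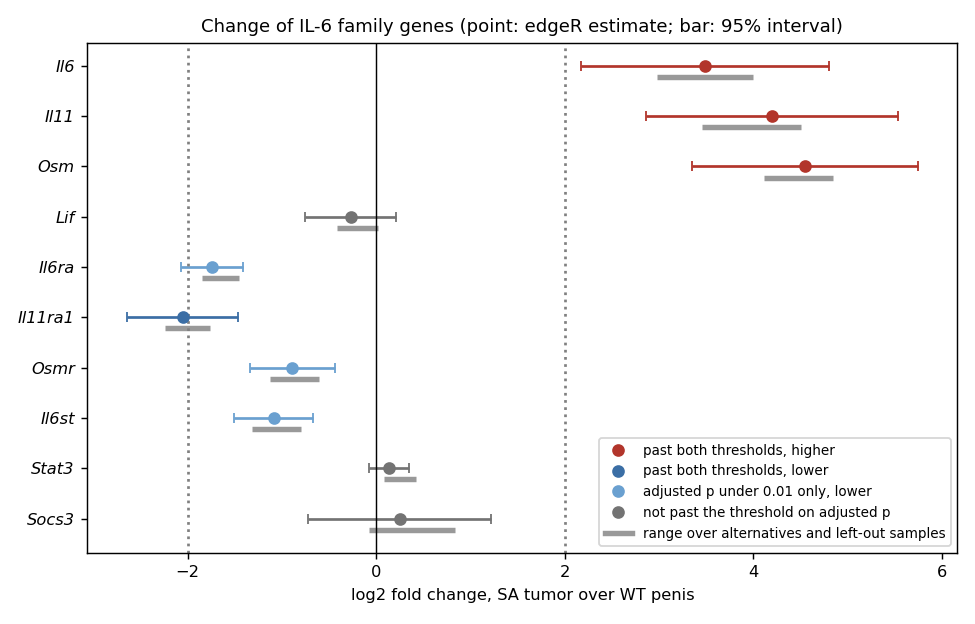
Log2 fold change of the 10 genes, SA tumor over WT penis, from edgeR (points) with 95% intervals (bars), and in grey the range over the alternatives and left-out samples. Il6, Il11 and Osm lie right of the dotted line at 2, Il11ra1 lies at -2.05 with a grey range that crosses the line at -2, and the intervals of Lif, Stat3 and Socs3 include 0.

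Stat3 (NM_213659, chr11:100886806-100939594), the transcription factor of the pathway, was at nearly the same TMM-normalized level in all 6 samples. It was at 244, 240 and 227 CPM in SA tumors 1, 2 and 3, and at 213, 205 and 228 CPM in WT penises 1, 2 and 3. The spread within a group was 3.82% of the mean in tumors and 5.33% in WT penises (coefficient of variation), the lowest of the 10 genes in both groups. SA tumor 3 overlapped WT penis 3. The difference of 0.14 on the log2 scale did not pass the test (SE 0.0910, 95% interval -0.07 to 0.35, edgeR adjusted p = 0.231), and its interval leaves out a change of 1.5-fold. With scaling by library totals, which moves the median of all genes to 0.31, it was 0.42 with an adjusted p of 0.00437. The deposited TPM of Stat3 was 91.6 to 97.1 in tumors and 60.6 to 73.2 in WT penises, without overlap. No test was made on TPM, so the even level holds for TMM-normalized CPM only. Stat3 exons overlap 72 bases of the opposite-strand gene Stat5a.

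Socs3 (NM_007707, chr11:117966079-117970336), the feedback inhibitor, was even among the tumors and uneven among the WT penises. It was at 77.9, 83.7 and 95.6 CPM in SA tumors 1, 2 and 3, and at 37.2, 121 and 58.1 CPM in WT penises 1, 2 and 3. WT penis 2 was above every tumor and the other WT penises were below every tumor. The difference was 0.25 on the log2 scale (SE 0.403, 95% interval -0.72 to 1.22, edgeR adjusted p = 0.634). Without WT penis 2 it was 0.83 with an adjusted p of 0.0120, and without WT penis 1 it was -0.07 with an adjusted p of 0.860. The immediate early gene Fos, picked after its values were seen, was also highest in WT penis 2, at 519 CPM against 3.71 and 35.5 CPM in WT penises 1 and 3, and was at 23.7 to 29.6 CPM in the tumors. What sets WT penis 2 apart, and its part in the Socs3 level, was not tested. The Socs3 promoter is shown because it was the 1 window among the members with a match to the STAT motif TTCNNNGAA (minus strand, chr11:117969317-117969616), in capitals, 154 bases upstream of the start that RefSeq gives. The counted transcript starts 180 bases further downstream in the GENCODE annotation, and from that start the match lies 334 bases upstream, beyond the 250 bases searched.
Socs3: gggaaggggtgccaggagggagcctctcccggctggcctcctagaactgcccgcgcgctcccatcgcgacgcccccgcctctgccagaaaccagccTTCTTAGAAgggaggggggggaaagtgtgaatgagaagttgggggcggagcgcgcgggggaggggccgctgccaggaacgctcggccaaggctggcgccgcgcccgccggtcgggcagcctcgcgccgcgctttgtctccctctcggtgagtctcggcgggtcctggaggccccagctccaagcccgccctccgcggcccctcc

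In all, 11 windows of 9 members were searched on both strands, and Osm was not among those windows. Beside the STAT and AP-1 letters given above, the search used TTGNGCAA for C/EBP and the NF-kappaB motif as it stands in Il6, with any base allowed at its first T. CTTTGAT was used for TCF/LEF and matched no window. None of these matches overlapped another. Among all 32851 promoter windows of the same length, 8.30% held the STAT letters, 7.81% the AP-1 letters, 3.73% the TCF/LEF letters, 2.94% the C/EBP letters and 0.411% the NF-kappaB letters. Lif and Osmr each held 1 AP-1 match, as TGACTCA and TGATTCA, and neither gene was called. The windows of Il6ra, Il6st, Il11ra1 and Stat3 held no match. A match is a description of the letters and not of binding.

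To compare levels between genes, the deposited TPM values, which account for transcript length, were used without a test. In WT penises the receptor chains and Stat3 stood far above the ligands. Stat3 led at 65.9 ± 6.53 TPM, followed by Il11ra1 at 58.9 ± 7.81 TPM, Il6st at 55.7 ± 10.2 TPM, Il6ra at 36.9 ± 8.59 TPM, Socs3 at 36.7 ± 22.8 TPM and Osmr at 17.1 ± 3.12 TPM (mean ± SD, n = 3). Each of these overlapped in range with the next in the order. Below Osmr came Lif at 1.75 ± 0.232 TPM and Il11 at 0.754 ± 0.235 TPM, each separated from its neighbors, and then Osm at 0.129 ± 0.0822 TPM and Il6 at 0.0808 ± 0.0416 TPM, whose ranges overlapped.

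In SA tumors Stat3 led at 93.6 ± 3.07 TPM, with Socs3 at 55.9 ± 7.06 TPM and Il6st at 33.8 ± 9.71 TPM, and the ranges of these neighbors did not overlap. Il11ra1 at 18.4 ± 5.88 TPM, Il11 at 18.4 ± 13.1 TPM, Il6ra at 14.2 ± 1.02 TPM and Osmr at 11.9 ± 3.55 TPM followed, each overlapping the next. By tumor, Il11 against Il11ra1 was 12.7 against 11.9 TPM in SA tumor 1 and 33.4 against 23.4 TPM in SA tumor 3, while in SA tumor 2 Il11 was the lower of the pair, with Il11ra1 at 19.8 TPM. In every WT penis Il11 was below Il11ra1. Osm at 4.14 ± 1.84 TPM lay between Osmr and Lif without overlap, and Lif at 1.88 ± 0.344 TPM overlapped Il6 at 1.22 ± 0.558 TPM. The 4 ligands summed to 18.6, 14.5 and 43.8 TPM in SA tumors 1, 2 and 3 and to 2.62, 3.32 and 2.21 TPM in WT penises 1, 2 and 3. The 4 receptor chains summed to 63.4, 72.3 and 99.1 TPM in the tumors and to 155, 169 and 182 TPM in the WT penises. Receptor TPM per ligand TPM was 3.41, 5.00 and 2.26 in the tumors and 59.2, 50.8 and 82.6 in the WT penises. Since a fixed total is shared by all transcripts, TPM values were not compared between groups by a test.

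**Figure D3:**
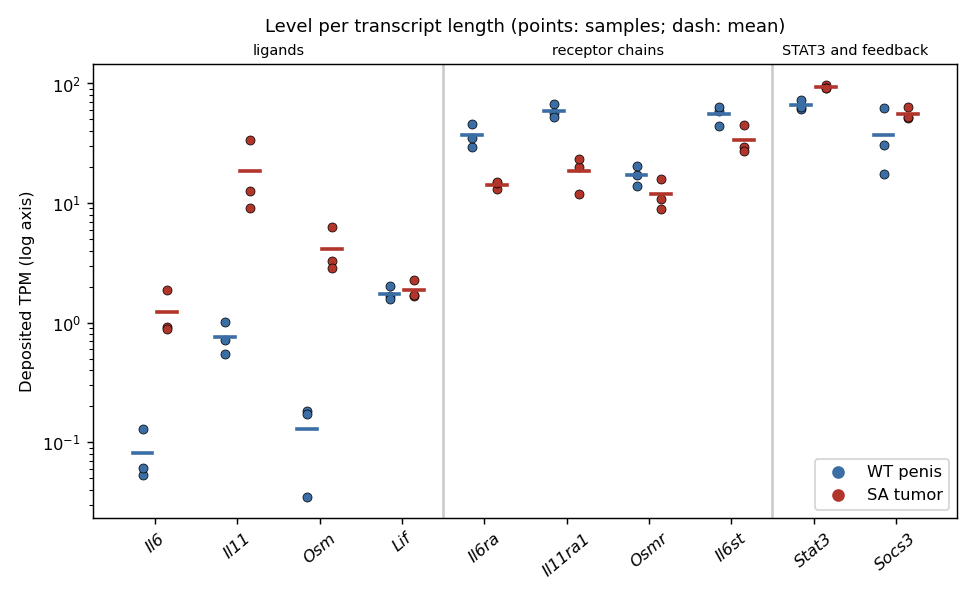
Deposited TPM of the 10 genes on a log axis, with each WT penis (blue) and SA tumor (red) as a point and the group mean as a dash. In WT penises the ligands Il6, Il11, Osm and Lif lie between 0.0808 and 1.75 TPM on average and the receptor chains between 17.1 and 58.9 TPM, and in tumors Il11 reaches 18.4 TPM.

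Among the tumors, SA tumor 3 had the highest CPM for 8 of the 10 genes, all but Il6ra and Stat3. The ratio of the highest to the lowest tumor was 3.48 for Il11, 2.04 for Osm, 2.00 for Il6, 1.93 for Il11ra1, 1.73 for Osmr and 1.56 for Il6st. It was 1.33 for Lif, 1.23 for Socs3, 1.17 for Il6ra and 1.08 for Stat3. Among WT penises the widest ratios were those of Osm at 5.95, which rests on a library with 1 count, and Socs3 at 3.25. SA tumor 3 was also the deepest library, and the leukocyte marker list summed to 197 CPM there against 68.0 and 128 CPM in SA tumors 1 and 2. The part of leukocytes or of depth in its higher levels was not tested.

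The other genes of the pathway were taken from 8 lists with 79 genes, of which 71 were tested. Of these, 11 were called higher and 1 lower, and on the adjusted p alone 17 were higher and 12 lower, leaving 42 that did not pass. These are 15.5% and 1.41% called, beside 9.41% and 3.59% of all tested genes, and 23.9% and 16.9% on the adjusted p, close to the 20.1% and 17.5% of all tested genes. The median log2 fold change of the 71 genes was 0.07, beside 0.03 over all tested genes. The calls were found among STAT3-activating cytokines of other families, their receptors and genes known to respond to STAT3. The 5 cytokines among the 11 genes called higher passed the filter on low counts only through the tumors. Hp, Batf and Il21r were not above the filter's 0.380 CPM in every WT penis. They too needed the tumors to pass it, which favors calls in the higher direction.

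Of the other cytokines that signal through STAT3, 5 of 9 were tested and all 5 were called higher, beside 9.41% of all tested genes. In every WT penis these 5 were at 0.226 CPM or less, under the filter's 0.380 CPM. They passed the filter only through the 3 tumors, so the direction of these calls was largely set by the filter. Il19, an IL-10 family cytokine of keratinocytes and myeloid cells, was at 8.14, 7.71 and 4.45 CPM in SA tumors 1, 2 and 3, with 1, 2 and 0 counts in the WT penises. Its pooled count ratio was 137 (counting interval 46.7 to 665), and the fitted difference was 7.28 on the log2 scale (edgeR adjusted p = 1.72e-05), or 8.03 without WT penis 2. Il24, of the same family, was at 2.30, 2.28 and 3.34 CPM in the tumors and had no count in any WT penis, which makes it at least 74.2-fold higher, taking 3 counts over the WT group as the floor.

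Il23a, the p19 chain of IL-23, was at 5.02, 5.23 and 3.64 CPM in SA tumors 1, 2 and 3, and at 0.181, 0.0334 and 0.182 CPM in WT penises 1, 2 and 3. Its difference was 5.18 on the log2 scale (SE 0.461, edgeR adjusted p = 4.19e-05). Unlike the ligands Il6, Il11 and Osm, both Il19 and Il23a were lowest, not highest, in SA tumor 3. Csf3, which encodes the granulocyte growth factor G-CSF, was at 2.04, 2.28 and 3.91 CPM in the tumors and held 2, 6 and 0 counts in the WT penises. Its difference was 4.68 on the log2 scale (SE 0.623, edgeR adjusted p = 0.000364), or 5.83 without WT penis 2. Il10, an anti-inflammatory cytokine, was at 1.11, 0.728 and 0.715 CPM against 0.226, 0.200 and 0.0911 CPM, a difference of 2.24 (edgeR adjusted p = 0.00291), and lost its call when any 1 WT penis was left out, at adjusted p values of up to 0.0148. Il20, Il21, Il22 and Lep held at most 13 counts in any library and did not pass the filter.

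Of the receptors of those cytokines, all 10 were tested, and 2 were called higher and 1 lower. That is 20% and 10%, beside 9.41% and 3.59% of all tested genes. Il20rb, a chain of the receptors for IL-19, IL-20 and IL-24, was at 15.5, 18.2 and 15.4 CPM in SA tumors 1, 2 and 3 and at 100, 103 and 87.4 CPM in WT penises 1, 2 and 3. The groups were far apart, at -2.57 on the log2 scale (SE 0.118, edgeR adjusted p = 2.24e-06). Il19 and Il24 thus rose while this receptor chain fell, as Il11 rose while Il11ra1 fell. Il6 with Il6ra and Osm with Osmr also went opposite ways, with receptor chains short of 4-fold. The direction of the Il19, Il24, Il6 and Osm calls was largely set by the filter. Il22ra1 and Il20ra were picked after their values were seen. Il22ra1 was lower at -1.19 (edgeR adjusted p = 5.26e-05). Not every pair followed this. Il20ra did not pass, at -0.02 (edgeR adjusted p = 0.965), and Csf3 and Csf3r both rose. Csf3r, the G-CSF receptor and also a gene of the granulocyte list, was at 19.1, 28.4 and 63.4 CPM in the tumors and at 1.76, 1.77 and 1.05 CPM in the WT penises, a difference of 4.59 (edgeR adjusted p = 0.000486), or 3.95 without SA tumor 3. Il21r, the IL-21 receptor, was at 1.08, 2.22 and 3.02 CPM against 0.678, 0.534 and 0.228 CPM, a difference of 2.15 (edgeR adjusted p = 0.00653). It lost its call in 8 of 16 alternatives, among them each left-out sample other than SA tumor 1. Il21r was under the filter's 0.380 CPM in WT penis 3 and needed the tumors to pass the filter.

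**Figure D4:**
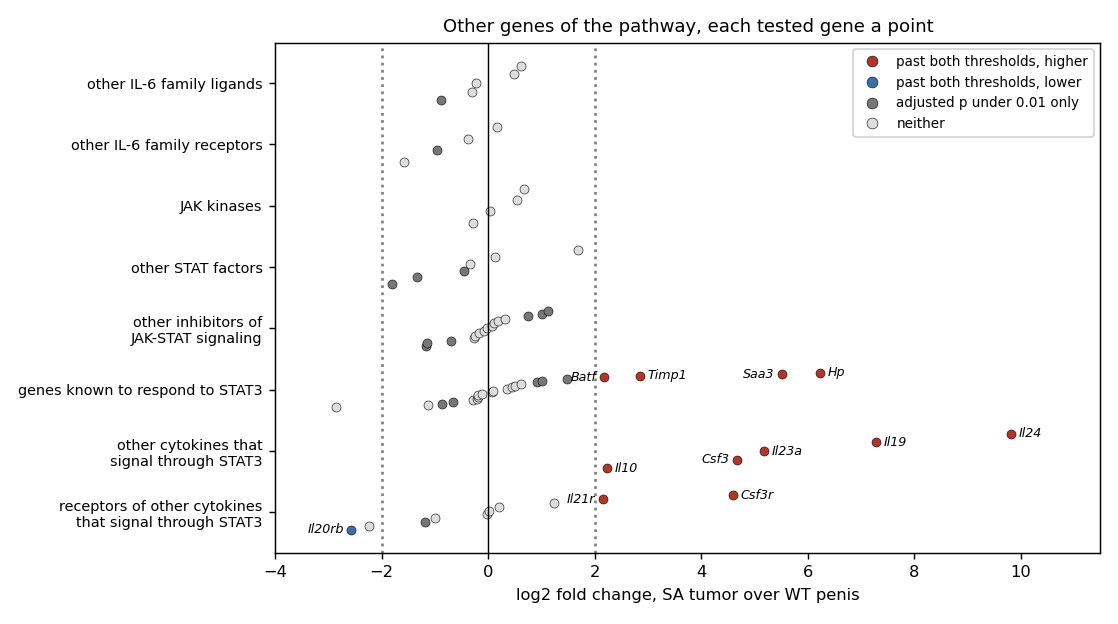
Log2 fold change, SA tumor over WT penis, of the 71 tested genes of the 8 pathway lists, with 1 point per gene in the row of its list and dotted lines at -2 and 2. The 11 genes called higher lie in 3 of the lists, and Il20rb is the 1 gene called lower. All 5 tested cytokines of other families are among the 11, and they passed the filter on low counts only through the tumors. Hp, Batf and Il21r also needed the tumors to pass it.

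Of 22 genes known to respond to STAT3, all were tested, 4 were called higher and none lower, and on the adjusted p alone 7 were higher and 2 lower. That is 18.2% called higher beside 9.41% of all tested genes, and on the adjusted p 31.8% higher and 9.09% lower beside 20.1% and 17.5%. The median log2 fold change of the 22 genes was 0.22, and no test of the list was made. Timp1, an inhibitor of metalloproteinases, was at 17.1, 29.3 and 43.9 CPM in SA tumors 1, 2 and 3 and at 4.75, 4.74 and 3.01 CPM in WT penises 1, 2 and 3. Its difference was 2.85 on the log2 scale (SE 0.366, edgeR adjusted p = 0.000463). The acute phase genes Saa3 and Hp were very uneven among the tumors. Saa3, a serum amyloid A protein, was at 5.17, 49.4 and 100 CPM in SA tumors 1, 2 and 3 and at 1.81, 0.968 and 0.638 CPM in WT penises 1, 2 and 3. Its difference was 5.52 (SE 1.17, edgeR adjusted p = 0.00834). Hp, which encodes haptoglobin, was at 4.83, 23.1 and 56.9 CPM against 0.497, 0.434 and 0.182 CPM, a difference of 6.23 (SE 1.11, edgeR adjusted p = 0.00398). WT penis 3 was under the filter's 0.380 CPM, so Hp needed the tumors to pass the filter.

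The calls of Saa3 and Hp rested on few libraries. Saa3 lost its call when SA tumor 2, SA tumor 3 or any 1 WT penis was left out, at adjusted p values of 0.0170 to 0.0584, and without SA tumor 3 its difference was 4.59. Hp lost its call when any 1 WT penis was left out, at 0.0179 to 0.0354, and was 5.20 without SA tumor 3. With limma-voom the adjusted p was 0.0851 for Saa3 and 0.0452 for Hp. Batf, a transcription factor of the AP-1 family, was at 1.23, 2.35 and 2.15 CPM in SA tumors 1, 2 and 3 and at 0.588, 0.334 and 0.364 CPM in WT penises 1, 2 and 3. Its difference was 2.18 (SE 0.389, edgeR adjusted p = 0.00175), with the call lost without WT penis 2 (1.99, adjusted p = 0.0127) or without WT penis 3 (2.06, adjusted p = 0.0103). Batf was under the filter's 0.380 CPM in WT penises 2 and 3 and needed the tumors to pass the filter.

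No gene was called among the remaining lists of the IL-6 family, the JAK kinases, the other STAT factors and the other inhibitors. Of the 5 other IL-6 family ligands tested, Ctf1 (cardiotrophin-1) had the lowest adjusted p, at -0.90 on the log2 scale (edgeR adjusted p = 0.00251). Of the 4 other receptors tested it was Lifr, the LIF receptor chain, at 18.8, 18.7 and 26.7 CPM in SA tumors 1, 2 and 3 and 29.8, 42.1 and 53.4 CPM in WT penises 1, 2 and 3. Its difference was -0.96 (edgeR adjusted p = 0.00802). The adjusted p was under 0.01 in only 7 of 16 alternatives, and was 0.0131 with limma-voom, 0.0417 with library totals and 0.0370 without SA tumor 2. None of the 4 JAK kinases passed the adjusted p, and the lowest was that of Jak2, at 0.54 (edgeR adjusted p = 0.0140).

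Of the 6 other STAT genes, 3 were lower on the adjusted p alone and none higher. That is 50% lower beside 17.5% of all tested genes, and none higher beside 20.1%. Stat5b was at 26.2, 28.3 and 38.4 CPM in SA tumors 1, 2 and 3 and at 103, 118 and 107 CPM in WT penises 1, 2 and 3, a difference of -1.81 on the log2 scale (SE 0.154, edgeR adjusted p = 3.28e-05). Its neighbor Stat5a, picked after its values were seen, differed by -1.33 (edgeR adjusted p = 4.90e-05). These genes mediate signals of growth hormone, prolactin and other cytokines, and they lie next to Stat3 in the genome. Of the 15 other inhibitors of JAK-STAT signaling, 3 were higher and 3 lower on the adjusted p alone, which is 20% in each direction beside 20.1% and 17.5% of all tested genes. Pias3, a protein inhibitor of STAT3, had the lowest adjusted p, at 27.8, 33.8 and 34.0 CPM in SA tumors 1, 2 and 3 and 67.3, 72.9 and 72.9 CPM in WT penises 1, 2 and 3, a difference of -1.16 (SE 0.111, edgeR adjusted p = 6.27e-05). Among the relatives of Socs3, described as a family after their values were seen, Socs5 was at 1.00 (edgeR adjusted p = 0.000123), Socs1 at 1.12 (edgeR adjusted p = 0.00238) and Cish at -1.17 (edgeR adjusted p = 0.00114). Socs2, Socs4, Socs6 and Socs7 did not pass, at -0.02 to 0.32. The adjusted p of Socs1 was 0.0146 without WT penis 2 and 0.0114 without WT penis 3.

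For Il6, Osm and Socs3, the genes of most similar pattern were found among 13823 genes of mean count at least 100 by how far their log2 CPM lay apart over the 6 samples (root mean square), after each gene was centred on its mean. The points share libraries and depth, and no test was made. Nearest to Il6 were Cd101 at 0.103, Fut4 at 0.104 and Clec7a at 0.186 on the log2 scale. Cd101 was at 2.49, 2.18 and 4.40 CPM in SA tumors 1, 2 and 3 and at 0.316, 0.601 and 0.364 CPM in WT penises 1, 2 and 3. Nearest to Osm were Ppbp at 0.319, Csf3 at 0.330 and Tmem132e at 0.350. Nearest to Socs3 were 3110057O12Rik at 0.279, Tas1r3 at 0.295 and Pram1 at 0.311. The prior count of 2 narrows the differences of genes with few counts, such as Il6 with 1, 3 and 1 counts in the WT penises. The distances of Il6 and of Socs3 therefore cannot be compared with each other.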

How the data were processed

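Stranded paired-end RNA-seq libraries of 3 SA tumors and 3 WT penises were analysed. Per the labels and the methods, reads were aligned by the authors with TopHat against mm10, checked with FastQC and counted with HTSeq, while versions, annotation release and strand setting are not given in the sources used here. The authors deposited a raw count for each of 33068 RefSeq transcript rows. They also deposited FPKM and TPM values derived from these counts. TPM served only to compare levels between genes, FPKM was not used, and deposited TPM values shift with the composition of a library. A read was counted in every transcript it fits, so 1 row per symbol was used, that of highest mean count, and rows of 1 gene cannot be separated.

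Tests on counts used edgeR 4.0.16 in R 4.3.3, with filterByExpr (0.380 CPM, which is 10 counts in a library of median size, in 3 samples, plus a minimum total of 15), TMM normalization, and the robust quasi-likelihood F-test over 16336 genes with Benjamini-Hochberg adjustment. The centred log2 CPM used a prior count of 2. The called threshold, adjusted p under 0.01 and log2 fold change of at least 2, was that of the study, which named DESeq2. Alternatives were DESeq2 1.42.0, limma-voom (limma 3.58.1), RLE, upper quartile and library-total scaling, no filter, a mean of at least 50 counts, glmTreat, summed transcript rows, the replicate number as a block, and leaving out 1 sample at a time. Libraries of 23828283 to 110509147 counts put 3 counts at 0.0244 to 0.137 CPM, and floors and counting intervals cover counting error only. Pooled count ratios weight each library by its depth, so SA tumor 3 weighs most among the tumors.

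The members and lists were chosen with earlier results of these data known. Named genes are the 10 members, Smad4, Apc, each called gene of a list (at most 6) or otherwise the gene of lowest adjusted p, genes that failed the filter, and the 3 genes most like Il6, Osm and Socs3. Fos, Stat5a, Il20ra, Il22ra1 and the SOCS family are named outside this rule, as are single marker genes. Gene positions and promoters are from RefSeq (GRCm38.p6), and exon overlaps and transcript starts from GENCODE vM21 (GRCm38).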

Additional observations from a re-analysis of the deposited data

How the results depend on the processing

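Over the alternatives, Il6, Il11 and Osm stayed higher and the 4 receptor chains lower, except that Il6 was not tested with the filter at a mean of 50 counts. The 3 members called higher became 1 (Osm) under glmTreat, which tests against the 4-fold threshold, and the 1 member called lower became 0 under upper quartile scaling, library totals and glmTreat, and 0 to 1 with a sample left out. Pathway genes called higher fell from 11 to 5 under glmTreat and were 6 to 11 with a sample left out, and those called lower rose from 1 to 2 under RLE, DESeq2 and no filter, and were 1 to 2 with a sample left out. In those left-out fits fewer samples were tested. Log2 differences changed sign for Lif (0.0188 with library totals), Socs3 (-0.0732 without WT penis 1, with a range of -0.0732 to 0.83 over left-out samples) and Fos (0.39 without WT penis 2, range -3.44 to 0.39), and the cause was not tested. Over all genes 1537 were called higher and 587 lower, and 749 and 180 under glmTreat. Library totals moved the median of all genes from 0.03 to 0.31, which is why their differences are read against that shift.

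Same-numbered tumor and WT samples deviated with correlations of -0.13, -0.10 and 0.02 across genes, so the numbers were not treated as pairs. With the replicate number as a block, the members called were 3 higher and 1 lower, the pathway genes 9 higher and 2 lower, and all genes 1478 higher and 588 lower. Groups of 3 and WT levels of 1 to 7 counts for Il6 and Osm limit the precision of their fold changes.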
